A study of Rattus norvegicus with 8 samples.

Results

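Aquaporins are the membrane channels through which water, and for some members glycerol, crosses cells, and the genes described here are *Aqp1*, *Aqp3*, *Aqp4*, *Aqp7*, *Aqp8* and *Aqp11* in the intestinal epithelium of rats that drank or were kept from water. They were chosen by name: every probe set annotated to one of these 6 genes alone was taken, which gave 9 probe sets for 6 of the 14217 genes on the array. Of the 6 genes, 5 were bright enough to test among 9258 tested genes, and *Aqp4* was dim. Epithelial cells were shaken loose from proximal intestinal segments of Wistar rats, aged 4 months by the labels and female by the study's methods, and each RNA was measured on an Affymetrix rat genome array. There were 2 arrays each for WR (water restriction for 12 h), DSW1200 (deep-sea water of hardness 1200 drunk for 3 days), SeW (selenium water drunk for 3 days, which by the methods held selenite in distilled water) and TW (tap water drunk for 3 days). The methods also name a longer restriction beside microarray data. WR lasted hours and the waters lasted days, so in each comparison of WR with a drinking group the length of the regimen differed as well. Nothing in the labels says that the 2 arrays of a group came from separate rats, and the p-values then measure only the spread between these arrays, which may be technical.

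Each aquaporin monomer is a pore of its own, and 4 of them assemble into a tetramer in the membrane. The orthodox members *Aqp1*, *Aqp4* and *Aqp8* carry mainly water, and Aqp8 also passes ammonia and hydrogen peroxide. Aqp1 is abundant in red cells and capillary endothelium, Aqp4 in astrocyte end feet and gastric parietal cells, and Aqp8 in pancreatic acinar cells and the gut. The aquaglyceroporins *Aqp3* and *Aqp7* carry glycerol as well as water. Aqp3 lies in the basolateral membrane of many epithelia and Aqp7 is best known as the glycerol exit channel of fat cells. Aqp11 is an unorthodox member that resides in the endoplasmic reticulum. Much of the water taken up by the small intestine follows absorbed sodium and sugar, and the share carried by aquaporins there is less well settled than in the kidney.

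Facts of the whole series that bear on these genes were few. Median deposited signal was 9.0 and 8.0 in WR, 6.1 and 7.0 in DSW1200, 11.1 and 10.6 in SeW and 8.4 and 4.3 in TW, so arrays were quantile normalized before any comparison and all signals below are on that normalized MAS5 intensity scale unless called deposited. The ratio of 3' to 5' beta-actin signal, lower in intact RNA, was 21.1 and 24.8 in WR, 32.8 and 27.1 in DSW1200, 13.6 and 10.9 in SeW and 24.1 and 20.6 in TW. The SeW arrays thus stood apart from the other 6 in both measures. The labelled tissue held its defining transcripts: all 9 enterocyte markers with a probe set were tested, and the lowest array value among *Vil1*, *Fabp1*, *Si* and *Epcam* was 2046. For *Apoa4* and *Alpi* the lowest array values were 1293 and 490. Signals of different probe sets depend on the probes as well as on the transcript. No level is therefore read as an amount relative to another gene, and summed signals are compared between groups only. In bulk RNA, fewer cells of a type and less RNA per cell cannot be told apart.

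*Aqp3* was the aquaporin whose level differed most clearly among the groups, so the 250 bases before its transcription start are shown here. They come from RefSeq (GRCr8, chr5:61040684-61040933, minus strand) and are written 5′ to 3′ in the direction of the gene.
Aqp3 upstream: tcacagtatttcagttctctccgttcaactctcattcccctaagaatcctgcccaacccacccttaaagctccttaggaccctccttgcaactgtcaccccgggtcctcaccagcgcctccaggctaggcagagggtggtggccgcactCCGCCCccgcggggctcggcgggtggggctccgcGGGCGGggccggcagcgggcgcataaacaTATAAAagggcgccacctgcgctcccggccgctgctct
Capitals mark a TATA box (TATAAA, starting at -38 from the start site) and 2 GC boxes (GGGCGG at -67 and, on the opposite strand, CCGCCC at -101). Each motif was searched on both strands. TATAAA stood in 12.9% of 33469 rat windows of this length and GGGCGG in 30.5%. The core of the tonicity element (TGGAAA, held by 19.7% of windows), which the osmotic stress factor Nfat5 binds in its longer form, was not in these letters. Among the other aquaporins, the *Aqp1* window held a TATA box at -30 and a GC box at -87, that of *Aqp11* a GC box at -49, that of *Aqp8* none of the 3 motifs. The windows of the 2 start sites of *Aqp4* held 2 and 1 TGGAAA cores. These matches describe letters and not sites in use. *Aqp3* and *Aqp7* are neighbors on rat chromosome 5, with no other coding gene between them.

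The first question was whether the epithelium of water-restricted rats differed in its aquaporins from that of drinking rats. None of the 5 tested aquaporins did by limma's moderated test, and for none did the 2 WR arrays lie apart from all 6 arrays of DSW1200, SeW and TW. Log2 differences of WR from the mean of the drinking groups were 0.17 for *Aqp3*, -0.04 for *Aqp7*, -0.07 for *Aqp8*, -0.13 for *Aqp11* and -0.18 for *Aqp1*, with adjusted p-values between 0.842 and 0.984. Over all genes this comparison called 0 of 9258 (0% called), although 687 had an unadjusted p under 0.05, and 7.32% of genes did not overlap between WR and the 6 drinking arrays. The median of the 5 aquaporins was -0.07, against 0.02 for all tested genes. An exact two-sided permutation test over the arrays gave p = 0.357 for *Aqp11*, 0.5 for *Aqp1*, 0.786 for *Aqp3* and for *Aqp7*, and 0.929 for *Aqp8*, where 2 arrays against 6 cannot go below 0.0714. The 95% confidence intervals say how much could have been missed, as far as the spread between these arrays goes. They use limma's moderated spread, in which each gene's own spread is drawn toward that of genes of like signal. They ran from -0.39 to 0.30 for *Aqp7*, -0.46 to 0.20 for *Aqp11*, -0.30 to 0.63 for *Aqp3*, -0.87 to 0.51 for *Aqp1* and -1.45 to 1.32 for *Aqp8*. A change of 2-fold, which is 1 on this scale, thus lay outside the interval of every tested aquaporin but *Aqp8*. For *Aqp1* this holds only for the brighter of its 2 probe sets, since the other lay at -0.82 (SE 0.68). It also concerns the pooled drinking groups: against TW alone the interval of *Aqp3* reached 1.56.

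**Figure D1:**
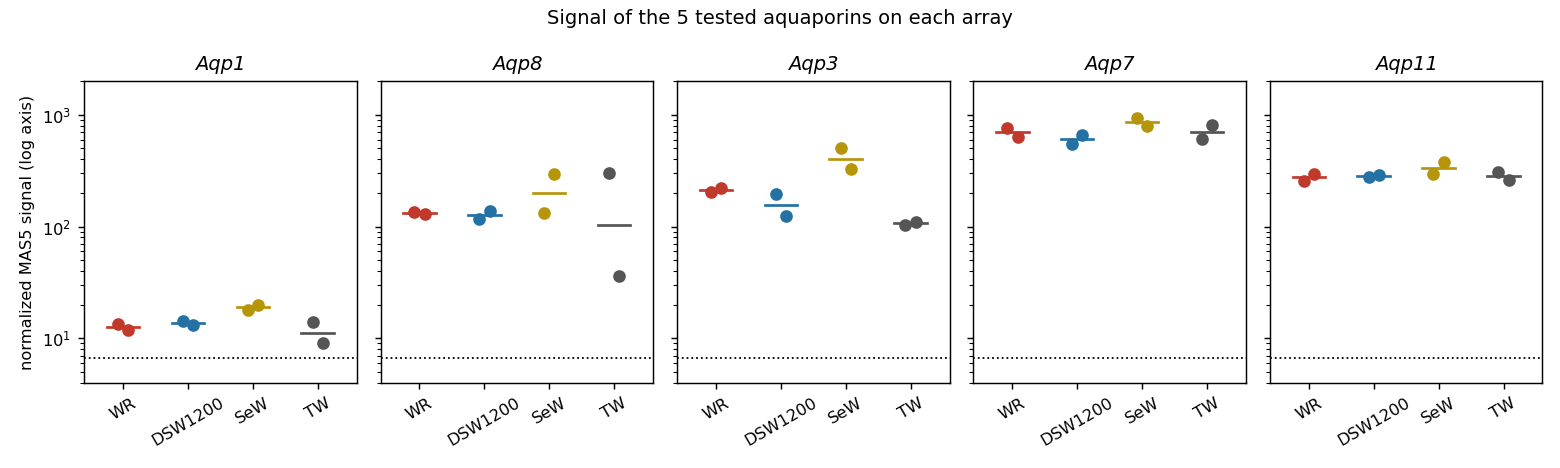
Normalized MAS5 signal (log axis) of the 5 tested aquaporins on each of the 8 arrays, with 1 point an array, a bar at the mean of the log2 values of each group, and a dotted line at the filter signal of 6.69. *Aqp3* stands at 500.2 and 328 in SeW, above all other arrays, and *Aqp8* spreads over 299 and 35.8 within TW.

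Among the orthodox members, *Aqp8* was even in 2 groups and scattered in the others. Its signal was 134 and 128 in WR, 118 and 137 in DSW1200, 131 and 297 in SeW and 299 and 35.8 in TW. The highest and the lowest array were both TW arrays, so every group lay within the range of TW. The spread within groups was 1.16 on the log2 scale, above that of 98.5% of tested genes, whose median was 0.260. Limma's moderated spread, on which the SE rests, was smaller than that of *Aqp8* itself. Differences from TW were still loose, at 0.34 for WR (SE 0.76, adjusted p = 0.904), 0.30 for DSW1200 (adjusted p = 0.916) and 0.93 for SeW (adjusted p = 0.542). Each took its direction from one TW array: without TW replicate 1 the SeW difference was 2.47 (adjusted p = 0.0207, a call), and without TW replicate 2 it was -0.60. The same 2 omissions gave 1.88 and -1.19 for WR against TW, and 1.83 and -1.24 for DSW1200 against TW. Pancreatic acinar cells, which express *Aqp8*, left transcripts in this fraction: the summed signal of 12 acinar markers ran from 134 to 676 in WR, 115 to 206 in DSW1200, 87.6 to 92.1 in SeW and 71.6 to 228 in TW, and its part in the *Aqp8* values was not tested. *Cpa1* was at the floor of the scale on 5 of 8 arrays and *Cela1* was at 29.7 or more on every array.

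*Aqp1* had 2 probe sets, and neither was bright. On 1387651_at, which represents the gene because its mean is higher, the signal was 13.6 and 11.8 in WR, 14.4 and 13.2 in DSW1200, 18.0 and 19.8 in SeW and 14.1 and 9.0 in TW. Both SeW arrays lay above the other 6, which overlapped one another. Of all genes, 51.2% did not overlap between SeW and TW and 54.2% between WR and SeW. The share with SeW apart from all other arrays was not counted. SeW exceeded TW by 0.75 (SE 0.38, 1.68-fold, adjusted p = 0.307) and WR lay -0.58 from SeW (adjusted p = 0.493), so neither difference passed. Probe set 1369625_at read 3.11 and 10.2 in WR, 8.94 and 3.19 in DSW1200, 33.0 and 7.96 in SeW and 10.8 and 12.3 in TW. Only 6 of its 8 arrays were above the filter, its groups overlapped except that both TW arrays were above both WR arrays and both DSW1200 arrays, and its WR difference from TW was -1.02 (adjusted p = 0.721 over 15523 probe sets), against 0.17 on the first probe set. The direction of *Aqp1* in WR and in DSW1200 against TW thus turned with the probe set. Of all tested genes, 39.7% did not overlap between WR and TW and 35.9% between DSW1200 and TW. The summed signal of 7 endothelial markers ran from 79.6 to 89.1 in WR, 69.4 to 95.4 in DSW1200, 58.4 to 64.2 in SeW and 49.0 to 91.2 in TW. Of those 7 markers, 5 were tested and none was called between WR and the drinking groups or between SeW and TW. Of all genes, 0% and 1.91% were called there, so that count is near the background. For red cells, the summed signal of 3 erythroid markers ran from 69.2 to 158 in WR, 89.6 to 90.1 in DSW1200, 46.8 to 82.7 in SeW and 69.65 to 74.0 in TW. The part of either cell type in the *Aqp1* values was not tested.

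*Aqp4* was dim on all 3 of its probe sets. The brightest, 1372190_at, gave 5.69 and 13.7 in WR, 7.84 and 3.19 in DSW1200, 6.74 and 6.08 in SeW and 0.488 and 0.188 in TW. Only 3 of these 8 values were above the filter of 6.69, 1 each in WR, DSW1200 and SeW, and both TW values were under the floor of 1 used before log2. Probe sets 1368981_at and 1387397_at stayed below the filter on all 8 arrays, at 0.475 to 3.34 and at 0.175 to 5.39, and TW was not the lowest group on either. When all 14217 genes were fitted without a filter, 1372190_at lay above TW by 3.14 in WR (adjusted p = 0.383), 2.32 in DSW1200 (adjusted p = 0.511) and 2.68 in SeW (adjusted p = 0.154). No such difference passed, and those sizes rest on where the floor was set. Gastric parietal cells express *Aqp4*, and the summed signal of 4 gastric markers ran from 30.5 to 39.4 in WR, 43.5 to 53.7 in DSW1200, 35.0 to 46.4 in SeW and 29.2 to 35.5 in TW. Of these, the gastrin gene *Gast*, a product of endocrine cells, was tested (11.8 to 34.1), and the proton pump subunits *Atp4a* (at most 6.29) and *Atp4b* (at most 13.2) and *Cblif* (at most 11.1) were dim. Their part in the *Aqp4* values was not tested.

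**Figure D2:**
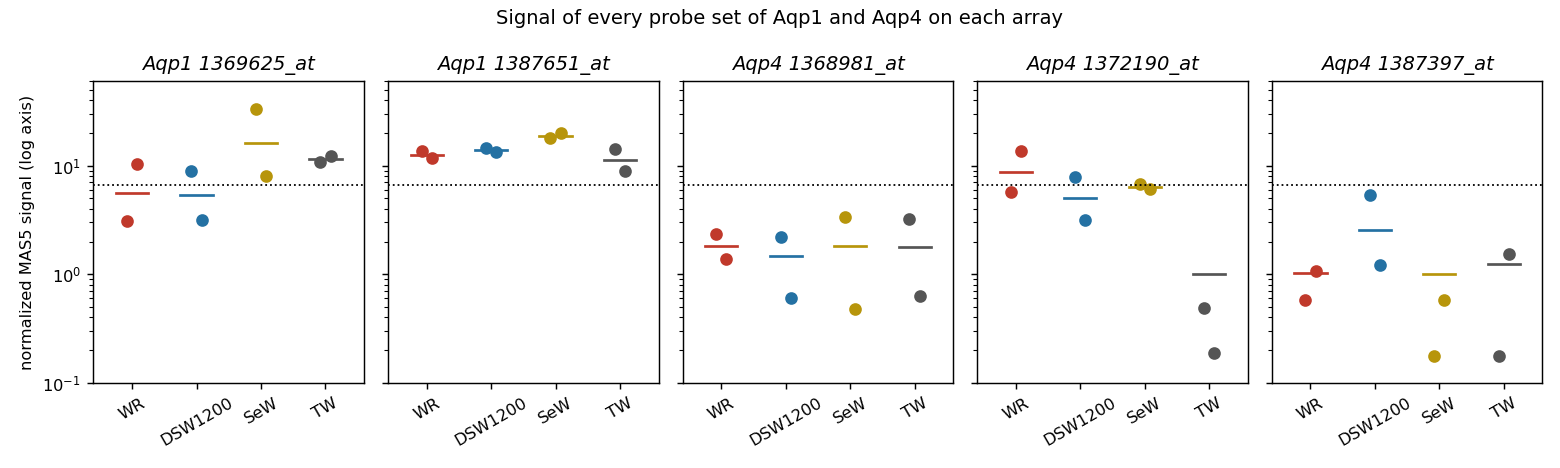
Normalized MAS5 signal (log axis) of the 2 probe sets of *Aqp1* and the 3 of *Aqp4* on each array, with the filter signal of 6.69 as a dotted line. Bars are means of log2 values after signals under 1 were set to 1, so a bar can lie above its points; on 1372190_at the TW arrays read 0.488 and 0.188, below every other array, and the other *Aqp4* probe sets do not share that order.

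*Aqp3*, the basolateral water and glycerol channel, read in a separate range in each group. Its signal was 204 and 220.0 in WR, 196 and 124 in DSW1200, 500.2 and 328 in SeW and 104 and 110.1 in TW. No groups overlapped: both SeW arrays were above both WR arrays, these above both DSW1200 arrays, and these above both TW arrays. In the single pairs of groups tested, between 35.6% and 54.2% of all genes did not overlap. Means were 212 ± 11.2 in WR, 160 ± 50.9 in DSW1200, 414 ± 122 in SeW and 107 ± 4.21 in TW (SD, n = 2 each). In the deposited values, before normalization, the 8 arrays read 200.1 and 203 in WR, 137 and 108 in DSW1200, 730.5 and 489 in SeW and 91.9 and 70.9 in TW, with the groups in the same order and again without overlap. No pair of groups that stand next to each other in that order passed limma's test after adjustment. WR lay -0.93 from SeW (interval -1.51 to -0.36, unadjusted p = 0.0046, adjusted p = 0.120). It lay 0.45 from DSW1200 (adjusted p = 0.903), and DSW1200 lay 0.54 from TW (adjusted p = 0.617). With the beta-actin ratio as a covariate, DSW1200 lay -0.033 from TW.

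The difference of *Aqp3* that passed the test was that of SeW from TW. *Aqp3* rose 3.78-fold in SeW, a log2 difference of 1.92 (SE 0.26, interval 1.35 to 2.49, adjusted p = 0.0123 by limma), and had the 15th smallest p of the 9258 genes. It was the only 1 of the 5 tested aquaporins called, in a comparison that called 1.91% of all genes (74 higher and 103 lower in SeW), and 1 of 2 aquaporins whose arrays did not overlap, where 51.2% of all genes did not. The 177 genes called became 2 without either SeW array, 42 or 43 without a WR array, 82 without TW replicate 2 and 521 without TW replicate 1. *Aqp3* passed in 14 of 19 other settings, with differences between 1.61 and 3.10. It did not pass with SeW replicate 1 left out (1.61, adjusted p = 0.0944) or SeW replicate 2 left out (2.22, adjusted p = 0.0576), with no filter on dim genes (adjusted p = 0.0792) or with no intensity trend (adjusted p = 0.117). The low beta-actin ratio of the SeW arrays moved with this result, and with that ratio as a covariate the difference was 3.10 but no longer passed (adjusted p = 0.195), in a fit that called 0 genes between SeW and TW. The summed signal of 9 enterocyte markers was also highest in SeW, and ran from 33550 to 35039 in WR, 36906 to 37432 in DSW1200, 41809 to 42232 in SeW and 37396 to 37514 in TW, and *Si* (sucrase-isomaltase) was the only 1 of the 9 called between SeW and TW (1.17, adjusted p = 0.0379, where 1.91% of all genes were called). Among the other 8, 6 lay higher and 2 lower in SeW, *Cdh17* at -0.13 and *Apoa1* at -0.24. Of 2 tested Paneth cell markers 1 was called, the defensin *Defa24* (2.13, adjusted p = 0.0166), and the other, *Lyz2*, lay at -0.21. The 3 tested proliferation markers were not called, *Mki67* at 0.89 (adjusted p = 0.121), *Top2a* at 1.10 (adjusted p = 0.188) and *Pcna* at 0.14. None of the 6 goblet cell markers was called either. Of these, 2 lay higher in SeW, with *Spink4* at 2.08 (adjusted p = 0.0598), and 4 lower (median of the 6 -0.12). The part of these cell types in the *Aqp3* difference was not tested.

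**Figure D3:**
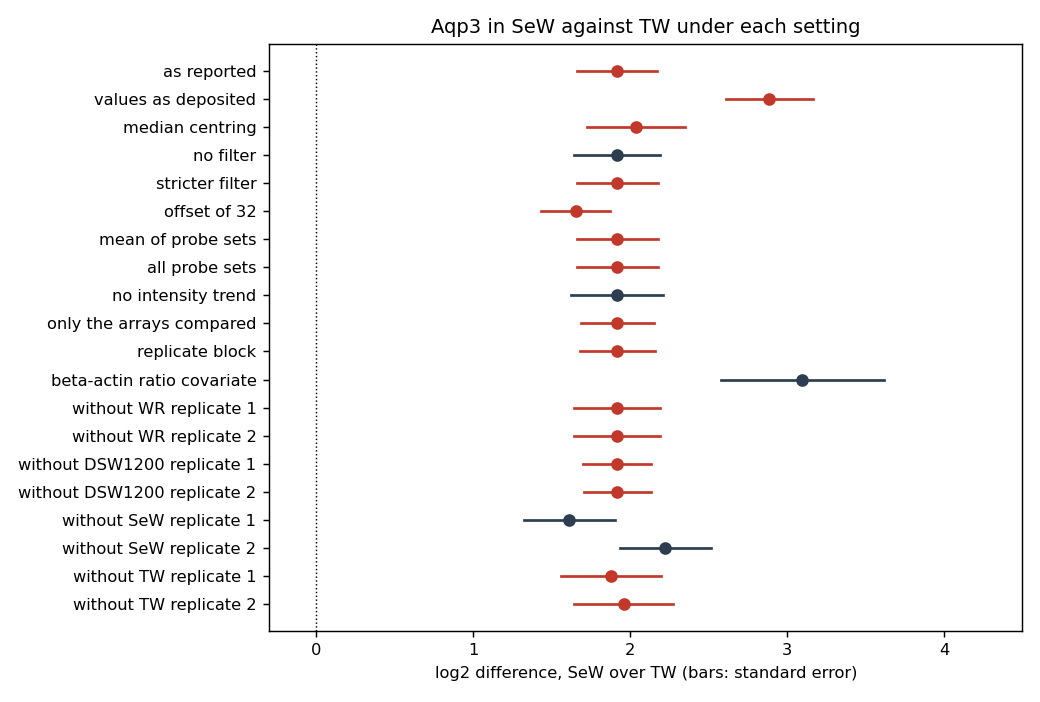
Log2 difference of *Aqp3* in SeW over TW as reported and under 19 other settings, with bars of 1 standard error; red marks an adjusted p under 0.05 and dark blue one above it. All 20 values lie above 1.5, and 5 of the other settings are dark blue.

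Against TW, *Aqp3* also stood higher in WR, but that difference did not pass. WR exceeded TW 1.98-fold, a log2 difference of 0.98 (SE 0.26, interval 0.41 to 1.56, unadjusted p = 0.00334, adjusted p = 0.373), and the comparison as a whole called only 1 gene (0.0108%), the Paneth cell defensin *Defa24*. That count was 219 without TW replicate 1 and 0 without either WR array. *Aqp3* was the only 1 of the 5 aquaporins not overlapping between WR and TW, where 39.7% of all genes did not overlap. Its difference stayed between 0.81 and 1.32 in 19 other settings and passed in 0 of them. The pooled comparison with the drinking groups did not show this order, since *Aqp3* in WR lay between SeW on one side and DSW1200 and TW on the other, and the pooled difference of 0.17 turned to -0.01 with median centring and to -0.09 with the beta-actin covariate.

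*Aqp7*, the other aquaglyceroporin, varied little. It read 764 and 633 in WR, 549 and 659 in DSW1200, 937 and 799 in SeW and 611 and 813 in TW. WR lay inside the range of TW, the DSW1200 arrays included the lowest of the 8 and SeW the highest, and SeW was clear of WR and of DSW1200 but not of TW. Between WR and SeW 54.2% of all genes did not overlap, and that share was not counted for SeW against DSW1200. The SeW difference from TW was 0.30 (SE 0.19, adjusted p = 0.422), that of DSW1200 -0.23 (adjusted p = 0.710) and that of WR -0.02 (adjusted p = 0.981). The interval of WR against TW, -0.44 to 0.40, leaves out a change of 1.5-fold in either direction. Fat cell markers were mixed, and 3 of 6 were tested. *Lep* was at the floor on all 8 arrays, *Plin1* on 5 and *Cfd* on 1. *Adipoq* ranged from 6.2 to 13.8, *Fabp4* from 20.1 to 35.3 and *Cidec* from 102 to 306. The summed signal of the 6 markers, most of it from *Cidec*, ran from 138 to 234 in WR, 248 to 359 in DSW1200, 234 to 325 in SeW and 185 to 260 in TW. What fat cells add to the *Aqp7* signal was not tested.

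*Aqp11*, the member of the endoplasmic reticulum, was the steadiest. Its signal was 256 and 295 in WR, 277 and 292 in DSW1200, 298 and 381 in SeW and 306 and 262 in TW, and its spread within groups was 0.17 on the log2 scale. WR, DSW1200 and TW overlapped one another, and SeW was above WR and above DSW1200 but overlapped TW. Again, 54.2% of all genes did not overlap between WR and SeW, and the share for SeW against DSW1200 was not counted. SeW differed from TW by 0.25 (SE 0.18, adjusted p = 0.478), DSW1200 by 0.01 (adjusted p = 0.995) and WR by -0.04 (adjusted p = 0.956).

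WR was also set beside each of the other drinking groups. Differences of WR from DSW1200 ran from -0.13 for *Aqp1* to 0.45 for *Aqp3*, only *Aqp3* did not overlap (35.6% of all genes did not), and 0 of 5 aquaporins and 0 of 9258 genes were called (0% called; 541 genes had an unadjusted p under 0.05). Against SeW, all 5 tested aquaporins lay lower in WR, with differences of -0.93 for *Aqp3*, -0.59 for *Aqp8*, -0.58 for *Aqp1*, -0.31 for *Aqp7* and -0.29 for *Aqp11*. Of these, 4 did not overlap (*Aqp1*, *Aqp3*, *Aqp7* and *Aqp11*), where 54.2% of all genes did not, and 0 were called, where 1.23% of all genes were (62 higher and 52 lower in WR, against 9 and 962 on deposited values and 8 and 27 with median centring). The 114 genes called became 1 or 2 without a WR or SeW array, 40 without a DSW1200 array and 211 or 212 without a TW array. The median of the 5 aquaporins was -0.58, against 0.04 over all tested genes. *Aqp3* passed between WR and SeW when only these 4 arrays were fitted (adjusted p = 0.0342).

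SeW and DSW1200 were also set against TW for the whole family. All 5 tested aquaporins lay higher in SeW, with a median of 0.75 against -0.04 over all genes, and *Aqp3* alone passed. In DSW1200, 4 of 5 lay higher and *Aqp7* lower, with a median of 0.29 against -0.02, and 0 were called. That comparison called 0 of 9258 genes (0% called; 733 had an unadjusted p under 0.05, and 131 were called without TW replicate 1), and 1 aquaporin, *Aqp3*, did not overlap, where 35.9% of all genes did not. The comparisons with TW share the 2 TW arrays. Before any scaling the median tested gene itself lay 0.92 higher in SeW than in TW. On deposited values 4 of 5 aquaporins were called between these groups, *Aqp1* at 1.73, *Aqp3* at 2.89, *Aqp7* at 1.26 and *Aqp11* at 1.23, of which only *Aqp3* exceeded that shift by more than 1. *Aqp8* narrowly missed a call (adjusted p = 0.05001) and, at 2.02, also exceeded the shift by more than 1. The split of all calls moved with the scaling as well: 4375 genes were called higher and 5 lower in SeW on deposited values, and 50 higher and 14 lower with median centring.

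**Figure D4:**
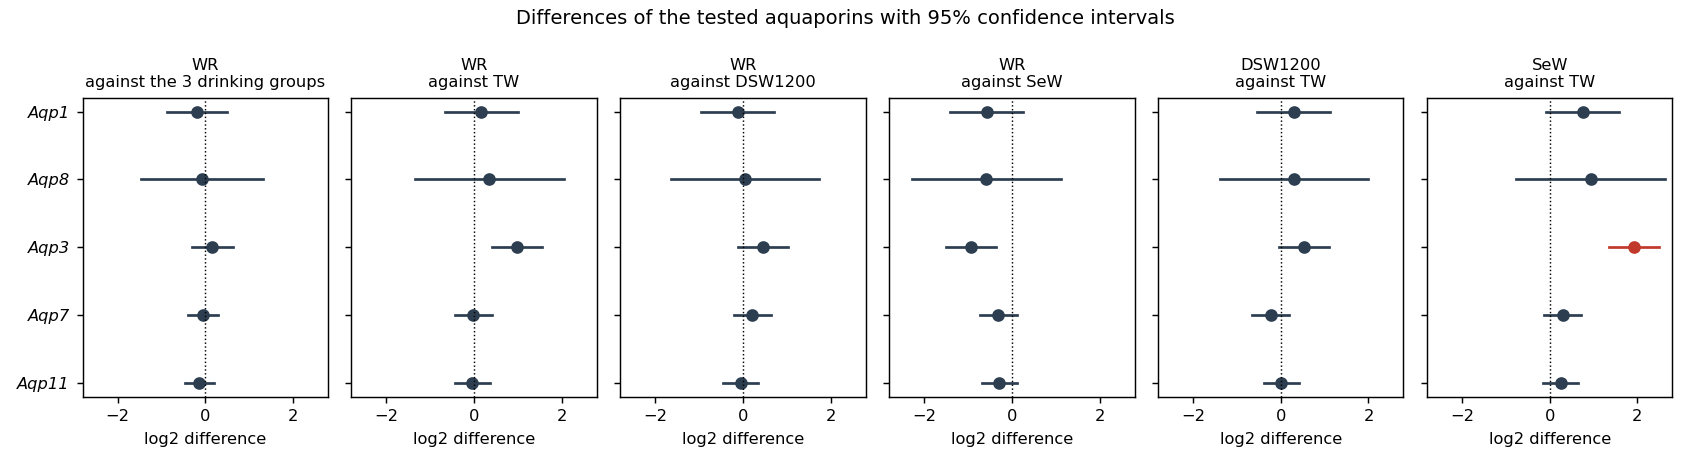
Log2 differences of the 5 tested aquaporins in 6 comparisons, with 95% confidence intervals from the fit over all genes and a dotted line at 0; red marks an adjusted p under 0.05. *Aqp3* in SeW against TW, at 1.92, is the one red point, and the intervals of *Aqp8* are the widest in every panel.

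The rest of the family on the array was mostly dim. *Aqp12a*, a channel of pancreatic acinar cells, was the only 1 of 6 further members tested, and read 24.4 and 20.7 in WR, 21.4 and 15.6 in DSW1200, 17.2 and 35.8 in SeW and 15.1 and 12.5 in TW. Both TW arrays were the lowest, and its difference from TW was 0.71 in WR (adjusted p = 0.566), 0.41 in DSW1200 (adjusted p = 0.750) and 0.85 in SeW (adjusted p = 0.263). In these comparisons with TW, between 35.9% and 51.2% of all genes did not overlap. *Mip* of the lens lay at or under the floor on 7 arrays, *Aqp2* of the kidney collecting duct, *Aqp5* of glands and *Aqp9* of the liver on 5 each and *Aqp6* on 4. Only *Aqp6* in DSW1200 replicate 1, at 8.80, was above the filter.

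Members varied together to different degrees. Over the 8 arrays, Pearson's r of normalized log2 values was highest between *Aqp1* and *Aqp8* (0.770) and lowest between *Aqp7* and *Aqp8* (-0.213), and it was 0.531 between the neighbors *Aqp3* and *Aqp7*. These 8 points share groups and array quality, and the values are descriptions. The tested genes most like *Aqp3* were *Dync1i2* (r = 0.991), which encodes a dynein intermediate chain, *Zc3h11a* (0.979) and the cadherin *Fat1* (0.969). For *Aqp1* they were the zinc transporter *Slc30a5* (0.979), *Tmem161b* (0.971) and *Chdh* (0.970). For *Aqp7* they were the phosphatase *Dusp5* (0.949), *Zfyve21* (0.945) and *Tmem59* (0.939). For *Aqp8* they were the kinase *Lats1* (0.968), *Grin3b* (0.966) and the collagen *Col1a1* (0.946). For *Aqp11* they were the peroxisomal enzyme *Hsd17b4* (0.945), *Nlrp6* (0.941) and *Gpd1l1* (0.937).

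Genes that set the osmotic load on these channels were read alongside them. Intestinal ion and nutrient carriers drive water uptake and secretion, and 13 of 15 with a probe set were tested. None was called in any comparison, where between 0% and 1.91% of all genes were, so that count is near the background. Relative to the drinking groups 5 were higher and 8 lower in WR (median -0.02, against 0.02 over all genes), and relative to TW 10 were higher and 3 lower in SeW (median 0.43, against -0.04). *Slc12a2*, the basolateral sodium, potassium and chloride cotransporter that loads chloride for secretion, read 142 and 225 in WR, 101 and 68.5 in DSW1200, 152 and 81.8 in SeW and 67.2 and 48.8 in TW. Both TW arrays were the lowest, and WR was clear of TW and DSW1200 but not of SeW. Of all genes, 39.7% did not overlap between WR and TW and 35.6% between WR and DSW1200. Its WR difference from TW was 1.65 (adjusted p = 0.334). The peptide carrier *Slc15a1* differed by 0.97 between SeW and TW (adjusted p = 0.0722). The guanylin system turns on chloride and bicarbonate secretion through cyclic GMP, and all 4 of its genes were tested. None was called in any comparison, where between 0% and 1.91% of all genes were, so that count too is near the background. The hormone *Guca2b* differed by -0.55 between WR and the drinking groups (adjusted p = 0.630), and the kinase *Prkg2* by 1.09 between SeW and TW (adjusted p = 0.0534).

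Osmotic stress genes let cells keep their volume by gathering organic solutes, and 7 of 8 were measured and tested. All 7 were higher in WR than in the drinking groups (median 0.32, against 0.02 over all genes) and all 7 than in TW (median 0.28, against -0.01). In these comparisons 0 of them passed, where 0% and 0.0108% of all genes did. WR had 5 of the 7 above DSW1200 and 6 above SeW. DSW1200 also had 5 of the 7 above TW (median 0.21, against -0.02), and SeW had 4. The kinase *Sgk1* differed from TW by 0.58 in WR (adjusted p = 0.506), the inositol carrier *Slc5a3* by 0.77 (adjusted p = 0.588), the chaperone *Hspa4l* by 0.79 (adjusted p = 0.537) and the tonicity factor *Nfat5* by 0.21 (adjusted p = 0.815). Signals of *Slc5a3* were small, at 18.8 and 23.9 in WR and 19.3 and 7.99 in TW, so these groups overlapped. *Hspa4l* read 18.2 and 20.7 in WR and 8.8 and 14.2 in TW. *Nfat5* read 305 and 339.5 in WR, 380.1 and 296 in DSW1200, 213 and 202 in SeW and 381 and 202 in TW, so both WR arrays lay within the TW range.

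Glycerol, the other cargo of *Aqp3* and *Aqp7*, is made, stored and used by 8 listed enzymes and lipid droplet proteins, of which 6 were tested. *Pck1*, which feeds glycerol phosphate synthesis as well as gluconeogenesis, rose in SeW against TW (1.44, adjusted p = 0.0364) and was the only 1 of the 6 called in any comparison, where 1.91% of all genes were called between SeW and TW. It read 1109 and 966 in WR, 134 and 269.7 in DSW1200, 1155 and 1222 in SeW and 485 and 393 in TW. The SeW arrays were above all others, followed by WR, TW and DSW1200 with no overlap between groups. In the single pairs of groups tested, between 35.6% and 54.2% of all genes did not overlap. Its WR difference was 1.25 from TW (adjusted p = 0.373) and 2.45 from DSW1200 (adjusted p = 0.0534). *Lipe*, the hormone-sensitive lipase that frees glycerol, differed by -1.10 between WR and TW (adjusted p = 0.449). The glycerol kinase *Gk* and the glycerol phosphate dehydrogenases *Gpd1* and *Gpd2* differed by between -0.32 and 0.07 between WR and TW.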

How the data were processed

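RNA of loosened intestinal epithelial cells was hybridized to 8 arrays, 2 per group. The deposited values are linear MAS5 signal intensities, 1 per probe set. The MAS5 version and scaling target are not given in the sources used here. The methods state quantile normalization, yet deposited medians differ between arrays, so all 31099 probe sets were quantile normalized here. Signals under 1 were set to 1 (18.0% of values) and log2 was taken. The platform annotation gave 1 symbol for 20826 probe sets, several for 436 and none for 9837, of which 57 are controls. Probe sets with several or none were left out. The brightest probe set on average stood for each gene, and genes whose mean exceeded 6.69 (the median over probe sets) were tested. The tests used limma 3.58.1 (R 4.3.3), in 1 model over 8 arrays with trended empirical Bayes moderation and Benjamini-Hochberg adjustment over 9258 genes, at a threshold of 0.05. The script was tested on simulated data. Members and lists were chosen with earlier results of these data known. Named genes were the aquaporins, up to 4 genes with the smallest p per list and comparison, and the 3 genes most correlated with each aquaporin. Other list members and markers were named after their values were seen. Alternatives were deposited values, median centring, no filter or a stricter one (36.2), an offset of 32, averaged probe sets, every probe set tested, a fit without the intensity trend or on the compared arrays alone, a replicate block, the beta-actin ratio as covariate, and each array left out. Replicate numbers did not pair arrays (deviation correlations from -0.06 to 0.04). DSW600 was not analysed here.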

Additional observations from a re-analysis of the deposited data

How the results depend on the processing

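With 2 arrays a group, 1 array can set a call. Each gene's own spread rests on 4 residual degrees of freedom, and the moderated p-values also borrow from the spread of all genes. Dim genes are limited by signal over background, and 18.0% of all values lay at the floor. On deposited values the number of genes called was 1 for WR against the drinking groups, 3 for WR against TW, 2 for WR against DSW1200, 971 for WR against SeW and 4380 for SeW against TW, and aquaporins called were 3 for WR against SeW (*Aqp3*, *Aqp7*, *Aqp11*) and 4 for SeW against TW. The median of all genes shifted there by 0.92 for SeW against TW, -0.52 for WR against SeW, 0.38 for WR against TW and 0.32 for WR against DSW1200, and uncalled differences changed sign for WR against TW in *Aqp7* (0.26) and *Aqp11* (0.29) and for WR against DSW1200 in *Aqp1* (0.26) and *Aqp11* (0.22). Median centring called 1 gene each for WR against the drinking groups and against DSW1200, 35 for WR against SeW and 64 for SeW against TW, and turned *Aqp3* in WR against the drinking groups (-0.013), *Aqp8* in WR against DSW1200 (-0.023) and *Aqp11* in DSW1200 against TW (-0.059).

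Without a filter 0 genes were called for WR against TW, 1 for WR against SeW and 12 for SeW against TW, 0 of them aquaporins; the stricter filter called 270 for SeW against TW. The offset of 32 called 1 gene each for WR against the drinking groups and against DSW1200. The mean of probe sets called 18 genes for WR against SeW and 64 for SeW against TW and turned *Aqp1* in WR (-0.43) and DSW1200 (-0.41) against TW, and all probe sets gave 54 calls for WR against SeW. Without the intensity trend 0 genes were called for WR against TW, 1 for WR against SeW and 1 for SeW against TW, with 0 aquaporins. Fitting only the arrays compared called 446 genes for WR against SeW, 1 aquaporin among them, and 26 for SeW against TW. With the beta-actin covariate 0 genes and 0 aquaporins were called for WR against SeW and SeW against TW, and sign changes were -0.093 for *Aqp3* and 0.061 for *Aqp7* in WR against the drinking groups, 0.0036 for *Aqp7* in WR against TW, 0.17 for *Aqp7* in WR against SeW, -0.033 for *Aqp3* and -0.041 for *Aqp8* in DSW1200 against TW, and -0.17 for *Aqp7* in SeW against TW. The cause was not tested for these.

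With the replicate number as a block, 19 genes were called for WR against SeW and 114 for SeW against TW, *Aqp3* kept its call in SeW against TW (adjusted p = 0.0180), and no call of an aquaporin changed under the replicate block.

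Leaving out 1 array at a time moved the number of genes called between 0 and 1 for WR against the drinking groups, 0 and 219 for WR against TW, 0 and 5 for WR against DSW1200, 1 and 212 for WR against SeW, 0 and 131 for DSW1200 against TW and 2 and 521 for SeW against TW, and of aquaporins called between 0 and 2 for SeW against TW (0 without either SeW array, 2 without TW replicate 1). The high counts of the comparisons with TW came without TW replicate 1, and the lowest for SeW against TW (2) without either SeW array. Differences ran between -0.18 and 0.094 for *Aqp7* and -0.58 and 0.45 for *Aqp8* in WR against the drinking groups. In WR against TW they ran between -0.15 and 0.069 for *Aqp11*, -0.23 and 0.19 for *Aqp7*, -0.16 and 0.49 for *Aqp1* and -1.19 and 1.88 for *Aqp8*. In WR against DSW1200 they ran between -0.15 and 0.054 for *Aqp11* and -0.065 and 0.16 for *Aqp8*. In DSW1200 against TW they ran between -0.11 and 0.12 for *Aqp11*, -0.031 and 0.61 for *Aqp1* and -1.24 and 1.83 for *Aqp8*, and in SeW against TW between -0.60 and 2.47 for *Aqp8*. Of all alternative values of single aquaporins, 512 kept their direction and their side of the threshold, 34 changed sign, 8 passed only there and 5 lost their call.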
